A study of Arabidopsis thaliana with 625 samples.

Results

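The genes described are 34 genes of carbon fixation and photorespiration in Arabidopsis thaliana, out of 32833 genes in the deposited expression tables. They were taken by name from lists of pathway genes. They comprised 4 genes of the small subunit of Rubisco, Rubisco activase, 13 genes of the Calvin cycle and its regulators, 2 carbonic anhydrases and 14 genes of photorespiration. Their levels were followed in 621 single cells, whose RNA was read by Smart-seq2, a full-length method run in plates. All cells came from aerial tissue of seedlings aged 10 days, and each carried a YFP transgene. In the ATML1p line (transgene ATML1p::YFP-RCI2A), an epidermal promoter drives a membrane-bound YFP, with 143 cells, 42 of them in pool 1 and 101 in pool 2, on 5 sort plates. In the TMMp line (transgene TMMp::TMM-YFP), the promoter of TMM drives YFP fused to this receptor, which acts in the stomatal lineage that gives rise to the pores of the leaf. That line gave 478 cells, 142 in pool 1 and 336 in pool 2, on 7 plates. The labels used here name no strain background or treatment for either line, and both lines carry a transgene, so no cells without one were compared.

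Rubisco joins CO2 to a sugar phosphate in the chloroplast, and the Calvin cycle reduces the product to sugar and rebuilds the acceptor. Rubisco also accepts oxygen, and photorespiration then recovers carbon from the by-product in a path that runs through chloroplast, peroxisome and mitochondrion. Leaf mesophyll carries most of both pathways in a leaf, while the chloroplasts of epidermal pavement cells are small and those of guard cells fix less carbon. The transcripts of nuclear Rubisco and Calvin cycle genes are among the most abundant of green tissue.

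The values are TPM, transcript abundance scaled for gene length to a fixed total per cell, so levels of different genes can be set side by side, but read depth per cell is unknown. Genes detected, meaning at 1 TPM or more, numbered 3179 in the median ATML1p cell and 2777 in the median TMMp cell, and plate ML2 of ATML1p had the lowest plate median, 1311. No plate mixed the lines, so plate and line cannot be told apart. Nothing in the sources used here says that pools or plates came from separate plants, so p-values measure only the spread between these pools or plates, which may be technical. A summed level of 12 light-harvesting genes of at least 10000 TPM marked cells called high cells below, and the rest are called low cells. High cells made up 44 of 143 ATML1p cells and 5 of 478 TMMp cells, the latter on plates TMM5, TMM6 and TMM7. A further 14 ATML1p and 27 TMMp cells lay between 5000 and 20000 TPM, near that limit. YFP transcripts were detected in 12 of 44 ATML1p high cells and in 78 of 99 ATML1p low cells. The epidermal marker list (6 genes) summed to a mean of 361 TPM in ATML1p high cells, with plates from 1.31 to 870 TPM, and to 1129 TPM in ATML1p low cells, with plates from 547 to 1659 TPM. In TMMp the same list summed to a mean of 2934 TPM in the 5 high cells, with plates from 0 to 5990.4 TPM, and to 1878 TPM in low cells, with plates from 1349.67 to 2506 TPM. PDF1, 1 of the 6 markers, was at 0 in the high cells of both lines. ATML1 and PDF2 were also lower in TMMp high cells, at 3.53 and 19.8 TPM against 33.8 and 32.1 TPM in TMMp low cells. LTP1 and FDH of the same list had means of 2333 and 454 TPM in TMMp high cells, against 574 and 148 TPM in TMMp low cells. CER5 was at 125 and 120 TPM. Detection in TMMp high and low cells was 20% and 48.0% for FDH, 20% and 36.2% for ATML1, and 40% and 46.1% for CER5. For PDF1 it was 0 and 58.8%. It went the other way for PDF2 (40% and 31.3%) and LTP1 (60% and 40.4%). These shares rest on only 5 high cells. At least 1 of 8 vascular markers was detected in 4.55% of ATML1p high cells and 11.1% of ATML1p low cells. Their sum went the other way, with means of 120 TPM in high cells (plates from 0 to 840 TPM) and 53.4 TPM in low cells (2.48 to 136 TPM). In TMMp the share was 20% of the 5 high cells and 6.13% of low cells, with mean sums of 364 and 10.3 TPM.

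In the high cells the 34 genes took 6.91% of all TPM in ATML1p and 7.71% in TMMp, against 0.250% and 0.263% in the low cells. The median ATML1p high cell had 31 of the 34 genes at a TPM of at least 1 (range 6 to 33), and the median low cell had 7 (range 0 to 23). In TMMp these medians were 32 in the 5 high cells and 8 in the 473 low cells. The high cells were picked on other photosynthesis genes, so these levels are a description, with no test. Within the high cells of ATML1p the order of mean levels was led by RBCS1A (AT1G67090) at 22702 TPM and RBCS3B (AT5G38410) at 8668 TPM, both genes of the Rubisco small subunit. The plastid aldolase FBA2 (AT4G38970) followed at 4786 TPM, RBCS2B (AT5G38420) at 3921 TPM, and GAPA (AT3G26650), a subunit of the chloroplast glyceraldehyde phosphate dehydrogenase, at 3410 TPM. Rubisco activase RCA (AT2G39730), which frees Rubisco of bound inhibitors, stood at 2879 TPM. The most abundant photorespiration transcript was GOX1 (AT3G14420), a peroxisomal glycolate oxidase, at 2404 TPM. The low end of the order held GLU1 (AT5G04140), the ferredoxin-dependent glutamate synthase that reassimilates ammonia, at 67.9 TPM and CP12-2 (AT3G62410), a small regulator that binds Calvin cycle enzymes, at 58.0 TPM. PGLP1 (AT5G36700), the phosphoglycolate phosphatase of the first photorespiratory step, was listed at 0 in all 44 high cells of ATML1p and in the 5 of TMMp. Near-identical copies can split or lose reads, and values of single RBCS, GOX, GLDP, CA and PGLP copies are uncertain for that reason.

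**Figure D1:**
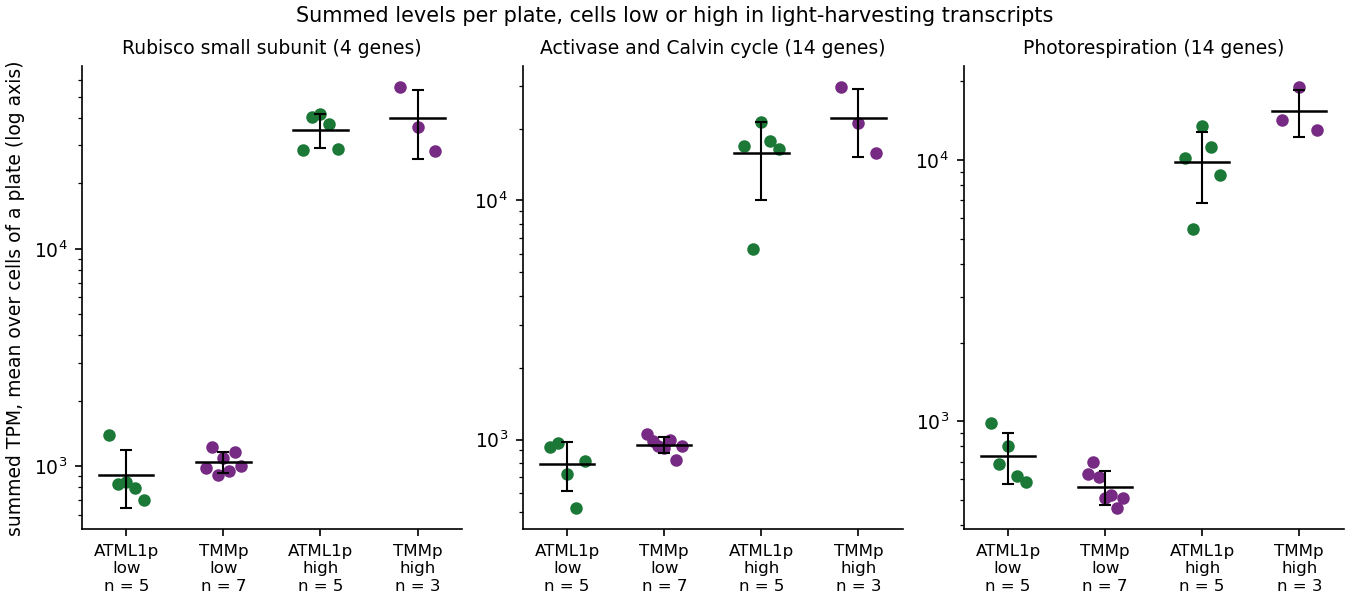
Summed TPM of the 4 Rubisco small subunit genes, of the 14 activase and Calvin cycle genes and of the 14 photorespiration genes, on log axes; each point is the mean over the low or high cells of 1 plate, and bars give the mean and SD over plates. In all 3 panels every plate's high cells lie above every plate's low cells in both lines, and plate ML2 is lowest among the 5 ATML1p plates for the activase and Calvin cycle sum in high cells, at 6282 TPM.

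Among the RBCS copies of ATML1p the low-abundance ones had the largest ratios of high to low cells, on low means that rest on few cells. In ATML1p, mean RBCS2B was 595-fold higher in high cells and mean RBCS1B (AT5G38430) 271-fold higher, against 104-fold for RBCS3B and 28.9-fold for RBCS1A. The low mean of RBCS2B came from 1 of 99 cells and that of RBCS1B from 4. In TMMp, over 5 high cells, the order was another: 119-fold for RBCS3B, 28.4-fold for RBCS1A and 27.6-fold for RBCS2B. Among genes of other roles the ratio was 548-fold for CA2, 278-fold for GOX1 and 184-fold for CAT2. Their low means came from 6, 26 and 42 of the 473 TMMp low cells. RBCS1B was detected in only 2 of the 473 TMMp low cells, so its ratio there has too few cells to be read. In ATML1p, Calvin cycle genes ranged from 4.85-fold for CP12-1 (AT2G47400) to 78.6-fold for HCEF1 (AT3G54050), the chloroplast fructose bisphosphatase. Photorespiration genes of ATML1p ranged from 3.596-fold for AT1G80380 to 41.0-fold for AGT1 (AT2G13360), which moves an amino group from serine to glyoxylate. The annotation used here names AT1G80380 as a nucleoside triphosphate hydrolase family protein. HCEF1 and AGT1 were detected in only 3 and 8 of the 99 ATML1p low cells. In the 5 TMMp high cells the RBCS sum was 6740, 18515, 49701, 53798 and 55289 TPM. Both cells with the lowest sums held 16 and 17 of the 34 genes, and the other 3 held 32 or 33. The mean RBCS sum of the TMMp high cells, 36809 TPM, was near the 36484.5 TPM of the 44 ATML1p high cells.

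Over whole pools, carbon fixation and photorespiration transcripts were lower in TMMp than in ATML1p. Pairs of values here are mean TPM in pools 1 and 2. The summed RBCS level was 10046 and 12578 TPM for ATML1p and 1110 and 1562 TPM for TMMp, with no overlap. Its log2 difference was -3.09 ± 0.39 (SE, limma on 2 against 2 pools, adjusted p = 0.0143). The difference turned to 0.29 with log2 values averaged over cells and to 0.19 without the high cells. Of the 33 genes that passed the filter on low values, 22 were lower in TMMp past an adjusted p of 0.05, 0 were higher, and all 33 differences were below 0. Over all 18392 rows tested, 1.9% were called lower. The median difference was -2.45 for the 33 genes and 0.32 for all rows. PGLP1 did not pass the filter. RBCS1B, counted in the 22 and the 33, and CP12-2, counted in the 33, reached it only with the ATML1p pools, so nothing is read from their direction. With no filter on low values 0 of the 22 calls were kept by limma, and 29 of the genes then had an unadjusted p under 0.05. In a pooled mean, fewer cells of a type and less RNA per cell cannot be told apart, and 28.6% and 31.7% of cells in the ATML1p pools were high cells, against 0 of 142 and 1.49% in the TMMp pools.

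All 4 RBCS copies were called, but nothing is read from the call of RBCS1B, which passed the filter only with the ATML1p pools. RBCS1A stood at 7046 and 7729 TPM in ATML1p and at 836 and 1055 TPM in TMMp (log2 difference -2.97 ± 0.35, limma adjusted p = 0.0132). RBCS3B stood at 1956 and 3044 TPM against 67.7 and 169 TPM (-4.50 ± 0.47, limma adjusted p = 0.0102). For both copies the lines were far apart relative to the spread between pools. RBCS1B was at 235 and 427 TPM in ATML1p and at 0.311 and 21.5 TPM in TMMp (-5.87 ± 1.15, limma adjusted p = 0.0487), and its call was lost without plate ML2. RBCS2B was at 810 and 1378 TPM in ATML1p and at 206 and 316 TPM in TMMp (-2.04 ± 0.38, limma adjusted p = 0.0411). On the mean of log2 values over cells RBCS2B turned to 3.75 in the other direction, a reversal taken up with the low cells. RCA was at 684 and 1058 TPM against 112 and 150 TPM (-2.71 ± 0.34, limma adjusted p = 0.0139).

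In the Calvin cycle 8 of 13 genes were called lower. They were GAPA, GAPB (AT1G42970), FBA1 (AT2G21330), FBA2, HCEF1, SBPASE (AT3G55800), RPE (AT5G61410) and PRK (AT1G32060). HCEF1 had the largest difference of the cycle, from 109.5 and 198 TPM in ATML1p to 7.25 and 13.2 TPM in TMMp (-3.78 ± 0.47, limma adjusted p = 0.0139). SBPASE, the sedoheptulose bisphosphatase that commits carbon to regeneration, went from 107 and 213 TPM to 14.3 and 20.1 TPM (-3.08 ± 0.44, limma adjusted p = 0.0202). The epimerase RPE, which makes ribulose phosphate and also serves the pentose phosphate path, went from 295 and 310 TPM to 84.6 and 93.9 TPM (-1.75 ± 0.28, limma adjusted p = 0.0272). PRK, the kinase that makes the Rubisco substrate, went from 114 and 134 TPM to 18.6 and 17.8 TPM (-2.70 ± 0.35). The 5 genes without a call were PGK1 (AT3G12780, phosphoglycerate kinase), TKL1 (AT3G60750, transketolase), EMB3119 (AT3G04790, ribose phosphate isomerase), CP12-1 and CP12-2, with differences from -0.55 for CP12-1 to -2.18 ± 1.01 for CP12-2. CP12-1, at 86.7 and 129 TPM in ATML1p and 63.4 and 82.1 TPM in TMMp, differed least among the 13.

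Both carbonic anhydrases, which interconvert CO2 and bicarbonate, were called lower. CA1 (AT3G01500), the chloroplast form, was at 412 and 798 TPM in ATML1p and 67.6 and 69.3 TPM in TMMp (-3.05 ± 0.37, limma adjusted p = 0.0139). CA2 (AT5G14740) was at 619 and 644 TPM against 3.20 and 42.1 TPM (-5.55 ± 0.92, limma adjusted p = 0.0292). The higher of the TMMp values belonged to the pool that held the 5 high cells, where CA2 averaged 2492 TPM.

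Of 13 photorespiration genes tested, 7 were called lower. GOX1 went from 578 and 867 TPM in ATML1p to 14.5 and 67.6 TPM in TMMp (-4.44 ± 0.64, limma adjusted p = 0.0204). GOX2 (AT3G14415), its neighbour copy, went from 174 and 226 TPM to 14.8 and 26.0 TPM (-3.27 ± 0.39, limma adjusted p = 0.0136). SHM1 (AT4G37930), the mitochondrial serine hydroxymethyltransferase, went from 393 and 555 TPM to 64.9 and 60.8 TPM (-2.87 ± 0.31, limma adjusted p = 0.0102). For each of these 3 genes the pools of the lines did not overlap, but the same held for genes without a call, such as CAT2 and GLU1. Non-overlap was not counted over all rows, so nothing is read from it. The peroxisomal hydroxypyruvate reductase ATHPR1 (AT1G68010, -2.54 ± 0.32), the glutamate:glyoxylate aminotransferase GGT1 (AT1G23310, -2.32 ± 0.29), AGT1 (-2.06 ± 0.39) and AT1G11860 (-2.45 ± 0.32), annotated as a glycine cleavage T-protein, were also called. The 6 without a call were catalase CAT2 (AT4G35090), at -3.23 ± 0.68 with a limma adjusted p of 0.0576, the glycine decarboxylase subunits GLDP1 (AT4G33010), GLDP2 (AT2G26080) and GDCH (AT2G35370), GLU1 and AT1G80380. AT1G80380 differed least of the 33 genes, at 183 and 189 TPM in ATML1p and 191 and 123 TPM in TMMp (-0.28 ± 0.32, limma adjusted p = 0.654).

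**Figure D2:**
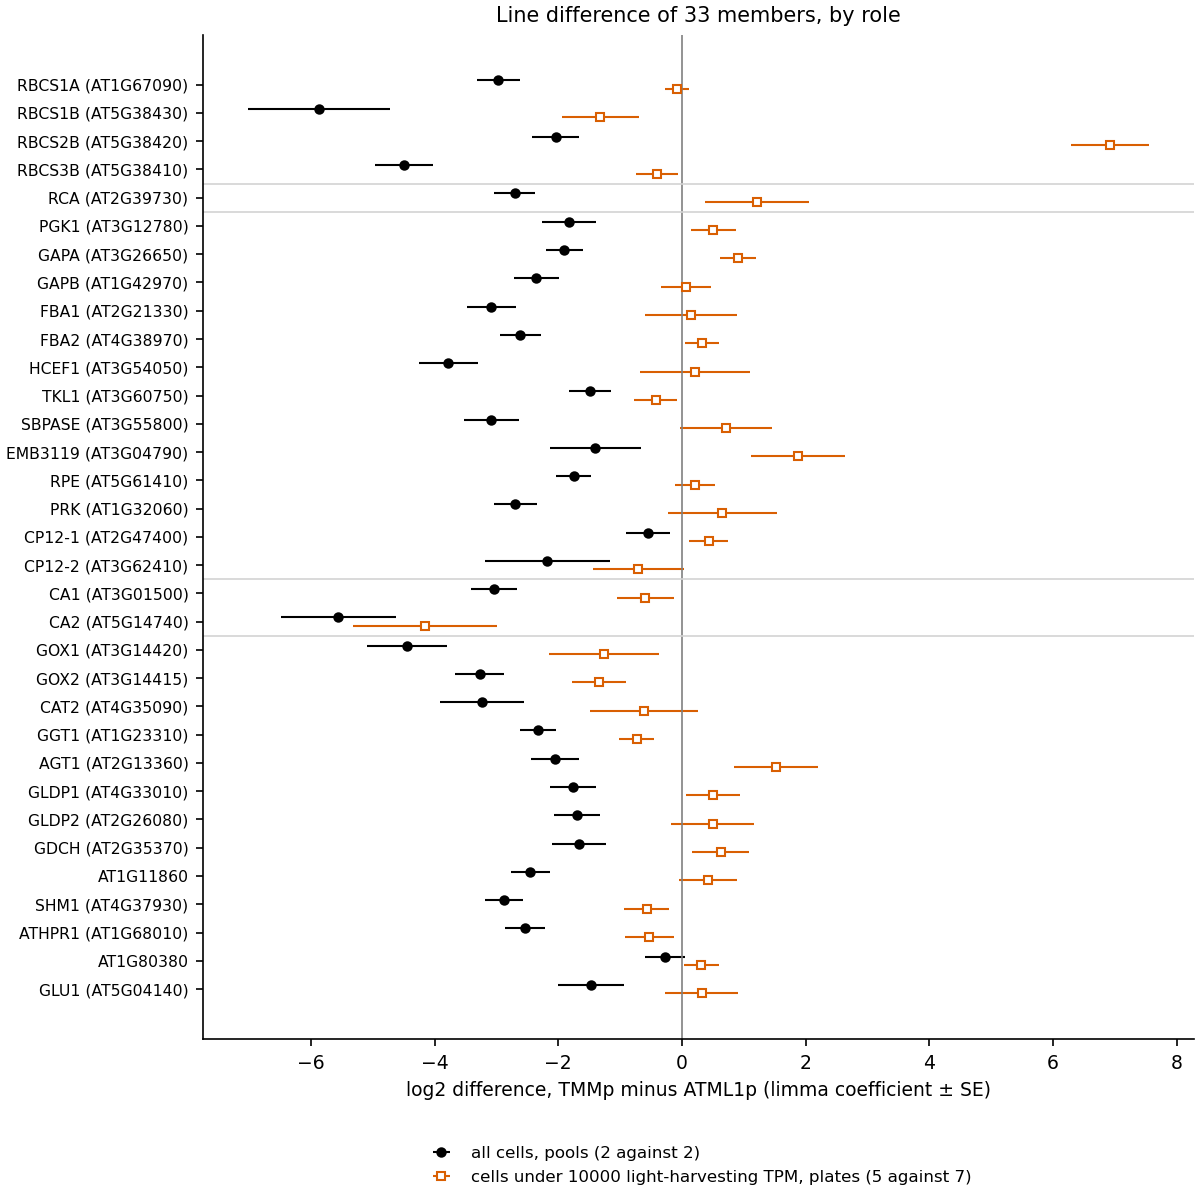
Log2 difference between lines (TMMp minus ATML1p, limma coefficient with its SE) for the 33 genes that passed the filter, grouped by role; filled circles use all cells with pools as units and open squares use low cells with plates as units. All 33 circles lie below 0, while the squares lie between -1.34 and 1.88 except RBCS2B at 6.92 and CA2 at -4.16.

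Without the 49 high cells the pool comparison called 0 of 32 genes at a limma adjusted p under 0.05, with 5 at an unadjusted p under 0.05, and 15 of the 32 lay below 0. Over all 18143 rows it called 28 (0.154%), with 3026 at an unadjusted p under 0.05. Of all rows 35.6% lay below 0, and their median difference was 0.36, against 0.05 for the 32 genes. Plates were then taken as units in a comparison of low cells that was added after seeing the data. It called 8.26% of 19872 rows in either direction, and 2 of 33 genes: RBCS2B was higher in TMMp and CA2 lower. RBCS1B passed the filter there only through the ATML1p plates. The median difference of the 33 genes was 0.21 and that of all rows 0.46. With log2 values averaged over cells those medians were 0.03 and 0.00, so members' differences here are read against the median of all rows. RBCS1A differed by -0.08 ± 0.20 (limma adjusted p = 0.833), below the median of all rows: ATML1p plates ran from 628 to 1197 TPM and TMMp plates from 612 to 964 TPM, so the lines overlapped. RCA, GAPB, FBA1, FBA2, SBPASE, RPE and PRK, lower over whole pools, had differences of 0.07 to 1.22 with adjusted p from 0.376 to 0.929. GAPA was at 69.7, 121, 181, 196 and 251 TPM on the ATML1p plates and at 208 to 358 TPM on the TMMp plates, with overlap between 208 and 251 TPM (0.91 ± 0.29, limma adjusted p = 0.0581).

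CA2 stayed lower in TMMp low cells. It was at 119, 110.5, 124 and 49.9 TPM on 4 ATML1p plates and at 0 on the fifth, ML1-7. Among the 7 TMMp plates it was at 0 on 5, at 6.58 TPM on TMM-1 and at 27.8 TPM on TMM7 (-4.16 ± 1.16, limma adjusted p = 0.0340). The adjusted p became 0.0520 with a limit of 5000 TPM and 0.0609 without plate ML2. GOX2 low cells averaged 23.3 to 59.3 TPM on the ATML1p plates and 7.54 to 27.4 TPM on the TMMp plates (-1.34 ± 0.43, limma adjusted p = 0.0619). It passed the threshold with log2 values averaged over cells (-0.85 ± 0.24, limma adjusted p = 0.0279). Detection was sparse for both genes, with CA2 in 10 of 99 ATML1p and 6 of 473 TMMp low cells and GOX2 in 20 and 35.

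RBCS2B went the other way from the remaining small subunit genes. In low cells it was at a TPM of at least 1 in 432 of 473 TMMp cells (91.3%, exact Clopper-Pearson 95% interval 88.4% to 93.7%) and in 1 of 99 ATML1p cells (1.01%, 0.0256% to 5.50%). By plate the share was 87.7% to 94.2% in TMMp, and 0 on 4 ATML1p plates and 3.13% on ML1-7. Mean RBCS2B was 191 to 257 TPM on the 7 TMMp plates, and on the ATML1p plates it was 0 except for 20.4 TPM on ML1-7, so the lines did not overlap (6.92 ± 0.63, limma adjusted p = 5.9e-06). The gene passed the filter on low values only through the TMMp plates, so some difference was bound to be found. The single ATML1p cell held 653 TPM. RBCS1A was detected in 75.7% of TMMp and 70.7% of ATML1p low cells, and RBCS3B in 29.0% and 25.3%. RBCS2B thus made up 21.0% of the RBCS sum in TMMp low cells and 0.750% in ATML1p low cells, while in high cells its share was 16.6% and 10.7%. A search over all genes for detection in at least 80% of TMMp and at most 5% of ATML1p low cells, chosen after the values of RBCS2B were seen, found 1 gene, RBCS2B itself, and 0 in the reverse direction. TMM, the gene of the TMMp transgene, was detected in 90.5% and 16.2%.

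**Figure D3:**
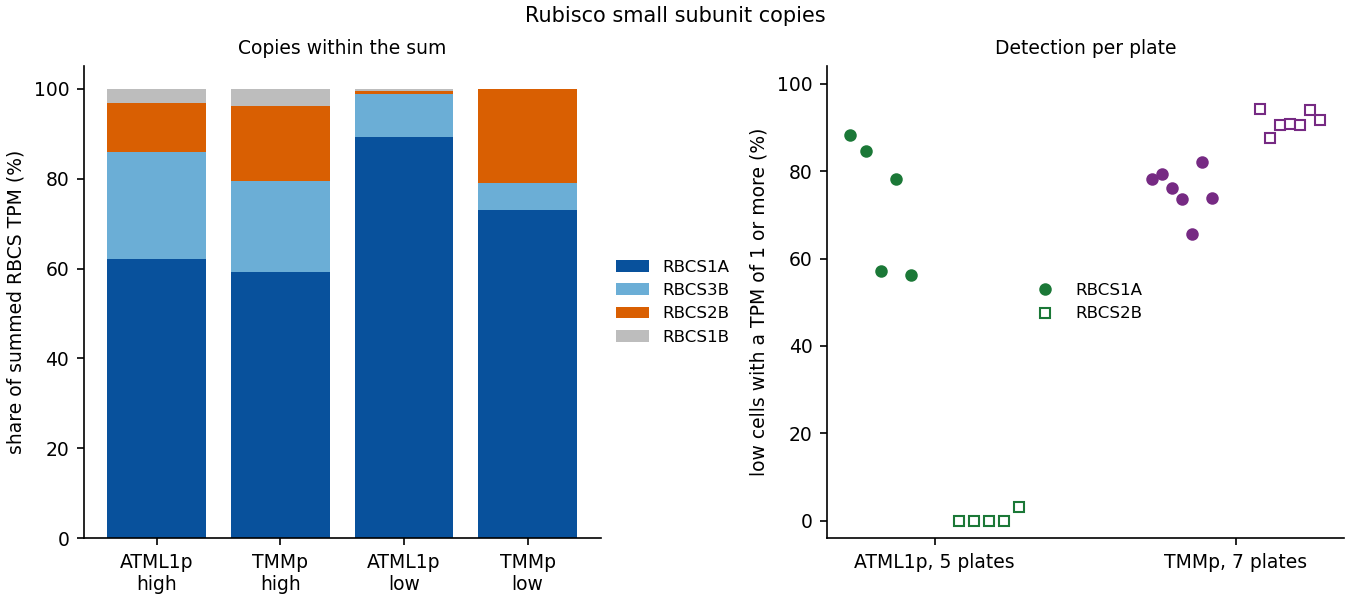
Left, share of each copy in the summed RBCS TPM (stacked bars, %) in high and low cells of both lines; right, share of low cells with RBCS1A (filled circles) or RBCS2B (open squares) at a TPM of at least 1, with 1 point per plate. RBCS2B lies at 87.7% to 94.2% on the TMMp plates and at 0 to 3.13% on the ATML1p plates, while RBCS1A overlaps between the lines.

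Within TMMp plates RBCS2B did not rise with the other copies. Spearman correlations across low cells, a description without a test, ran from -0.65 to -0.33 between RBCS2B and RBCS1A over the 7 plates of 61 to 76 cells, and from -0.43 to -0.11 between RBCS2B and RBCS3B. Against the number of genes detected RBCS2B ran from -0.36 to 0.00, and against YFP transcripts from -0.29 to -0.09. RBCS1A against the number of genes detected ran from 0.26 to 0.61 and against YFP from 0.28 to 0.59. RBCS2B was detected in 89.6% to 98.2% of TMMp low cells with YFP transcripts and in 62.5% to 80.0% of those without, by plate. The cells without YFP transcripts numbered only 4 to 15 a plate. TPM share a fixed total per cell, and the part of read sharing between copies or of the transgene insert in this pattern was not tested.

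The RBCS sum in low cells was then compared with and without RBCS2B. The log2 of the mean sum was 9.79 ± 0.38 (SD, 5 plates) in ATML1p and 10.03 ± 0.15 (7 plates) in TMMp, a difference of 0.24 (two-sided exact permutation test over 792 splits, p = 0.167, with 0.00126 the smallest p it can give). With the mean over cells of the log2 sum the difference became 2.72 (exact permutation p = 0.00126). Without RBCS2B, an alternative added after seeing the data, it was 0.43 (exact permutation p = 0.418) on that scale and -0.11 (exact permutation p = 0.590) on the first. A lower limit of 5000 TPM gave 0.77 (exact permutation p = 0.00253), and a higher limit of 20000 TPM gave -0.33 (exact permutation p = 0.135), the opposite direction.

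Photorespiration and Calvin cycle transcripts were then set against each other as the ratio of their sums, 14 photorespiration genes over RCA and the 13 Calvin cycle genes. In low cells the ratio was 1.06, 0.706, 1.12, 1.197 and 0.721 on ATML1p plates ML1, ML2, ML1-5, ML1-6 and ML1-7. On the 7 TMMp plates it ran from 0.528 to 0.708 with a median of 0.565. The means were 0.959 ± 0.230 (SD, n = 5) and 0.591 ± 0.066 (SD, n = 7), and the lines met only where TMM-2, at 0.708, lay above ML2. In ATML1p high cells the ratio was 0.654 ± 0.127 (SD, n = 5), below that of low cells on 4 of 5 plates, and in TMMp high cells it was 0.478, 0.902 and 0.820 on 3 plates. The sums behind the low-cell ratios were 587 to 984 TPM of photorespiration and 516 to 972 TPM of Calvin cycle in ATML1p, and 464 to 697 TPM and 821 to 1054 TPM in TMMp. The ratio is a score over chosen genes and was given no test. Across low cells of a plate the sums of both pathways correlated with each other at a Spearman rho of 0.26 to 0.78 in ATML1p and 0.33 to 0.57 in TMMp, again as a description, with library and light-harvesting level shared.

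**Figure D4:**
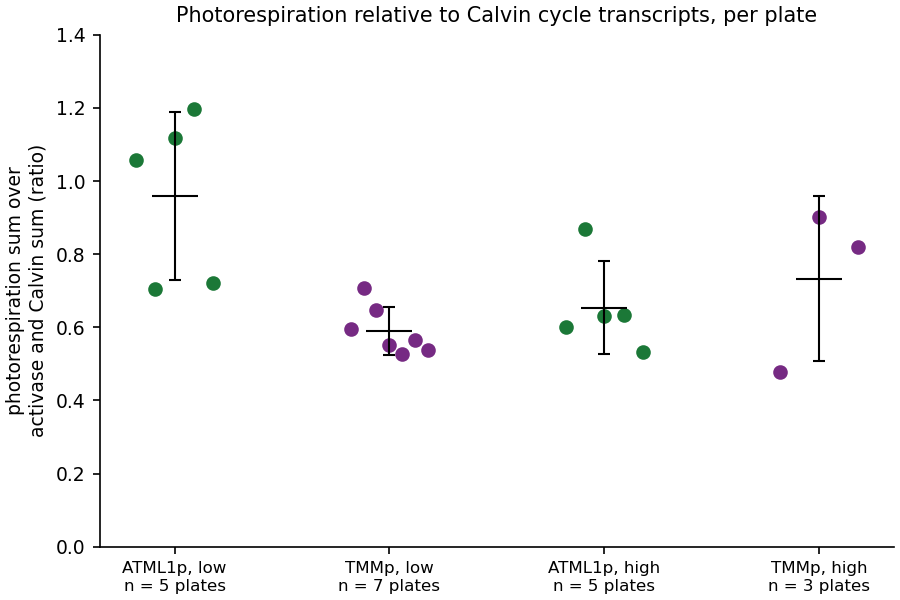
Ratio of summed photorespiration TPM (14 genes) to summed activase and Calvin cycle TPM (14 genes); each point is 1 plate, and bars give the mean and SD. In low cells 4 of the 5 ATML1p plates, and none of the TMMp plates, exceed 0.708.

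TMMp cells were next split by the stage gene they expressed at a TPM of at least 1. Each cell was counted once, in the order FAMA, MUTE or EPF1, SPCH, MYB60, POLAR and PDF1. A class therefore holds no cell with a gene earlier in this order, but can hold cells that also had a later one. SPCH (52 cells) marks the start of the lineage, MUTE or EPF1 (46 cells) the commitment of the precursor, FAMA (55 cells) the guard mother cell and young guard cell, and MYB60 (22 cells) guard cells. Of the rest, 54 cells had POLAR, 103 had PDF1 and 146 had none of these genes. The number of genes detected moved with these classes: the median was 3789 for SPCH, 4276.5 for MUTE or EPF1, 4308 for FAMA and 3013 for MYB60, and 2108.5 for cells without a stage gene. The median number of the 34 genes detected per cell was 10, 15, 12 and 10 in the same order, and 5 in cells without a stage gene. None of these 4 classes held a high cell. Class means per plate were compared with SPCH in limma with plate as a block, on the mean of log2(TPM + 1), over 7 plates (4 for MYB60). RBCS1B, CA2 and PGLP1 did not pass the filter, leaving 31 genes.

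RBCS1A was the most widely detected of the 34 genes in the SPCH, MUTE or EPF1 and FAMA classes, and RBCS2B in the others. RBCS1A was found in 96.2% of SPCH cells, 100% of MUTE or EPF1 cells, 100% of FAMA cells, 90.9% of MYB60 cells and 47.9% of cells without a stage gene. Its mean log2 level per plate was 9.32 ± 0.82 (SD) in SPCH, 9.68 ± 0.46 in MUTE or EPF1, 9.63 ± 0.49 in FAMA and 8.05 ± 1.32 in MYB60 cells. SPCH, MUTE or EPF1 and FAMA cells did not differ beyond their spread. The fall in MYB60 cells had an unadjusted p of 0.0320 and a limma adjusted p of 0.354. RBCS2B stood at a mean log2 level over cells of 5.24 in SPCH, 5.18 in MUTE or EPF1, 6.45 in FAMA and 6.81 in MYB60. In cells without a stage gene RBCS2B was at 7.43 and RBCS1A at 4.09. Per plate the mean of RBCS2B was 5.61 ± 1.28 (SD) in SPCH, 5.11 ± 0.77 in MUTE or EPF1, 6.40 ± 0.58 in FAMA and 6.33 ± 0.95 in MYB60 cells. None of its contrasts with SPCH was called, with limma adjusted p of 0.891 for MUTE or EPF1, 0.579 for FAMA and 0.707 for MYB60.

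Between SPCH and MUTE or EPF1 cells 0.739% of 15824 rows were called, and of the 31 genes 1, GAPB, which was higher. GAPB, the regulatory subunit of the chloroplast dehydrogenase, lay between 1.08 and 2.36 (median of plates 1.41, log2 scale) in SPCH cells and between 0.53 and 6.89 (median 4.48) in MUTE or EPF1 cells. Plate TMM7 was the exception, with 1.59 in SPCH and 0.53 in MUTE or EPF1 cells. The difference was 3.01 ± 0.76 (limma adjusted p = 0.0324). The call was lost with the number of genes detected as a covariate, without the plates of either pool, and under 3 other settings. RCA (2.53 ± 0.80), GDCH (2.56 ± 0.75) and SHM1 (2.21 ± 0.84) had limma adjusted p of 0.138, 0.0970 and 0.278. In all, 23 of the 31 differences lay above 0, with a median of 0.44 against 0.09 for all rows.

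Between SPCH and FAMA cells 8.97% of rows were called, and 1 of 31 genes, GOX2. It was listed at 0 in all 52 SPCH cells, which at 3 counts allows a share of up to 5.77% of cells with a detected transcript (not of cells expressing the gene), and detected in 10 of 55 FAMA cells (18.2%). Its mean log2 level was 0 on every plate in SPCH and 0.53 to 2.06 in FAMA cells, so the classes did not overlap (1.29 ± 0.38, limma adjusted p = 0.0189). GOX2 reached the filter on low values only with its FAMA plates and so had to differ from SPCH cells, and nothing is read from this call, which was lost without the plates of pool 2. GOX2 was also present in 4 of 46 MUTE or EPF1 cells, 2 of 22 MYB60 cells and 10 of 103 PDF1 cells. GGT1 (2.39 ± 0.83), GDCH (2.13 ± 0.75) and FBA1 (-1.59 ± 0.57) had limma adjusted p of 0.0548, 0.0621 and 0.0641. Between SPCH and MYB60 cells 0.303% of rows were called and 0 of 31 genes, with 7 at an unadjusted p under 0.05 against 2010 of all rows. FBA2 (2.93 ± 0.96), SHM1 (3.21 ± 1.02) and GDCH (2.96 ± 0.92) were the largest of these 7, with limma adjusted p of 0.188, 0.177 and 0.161. SHM1 was called in that contrast once the number of genes detected was a covariate.

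**Figure D5:**
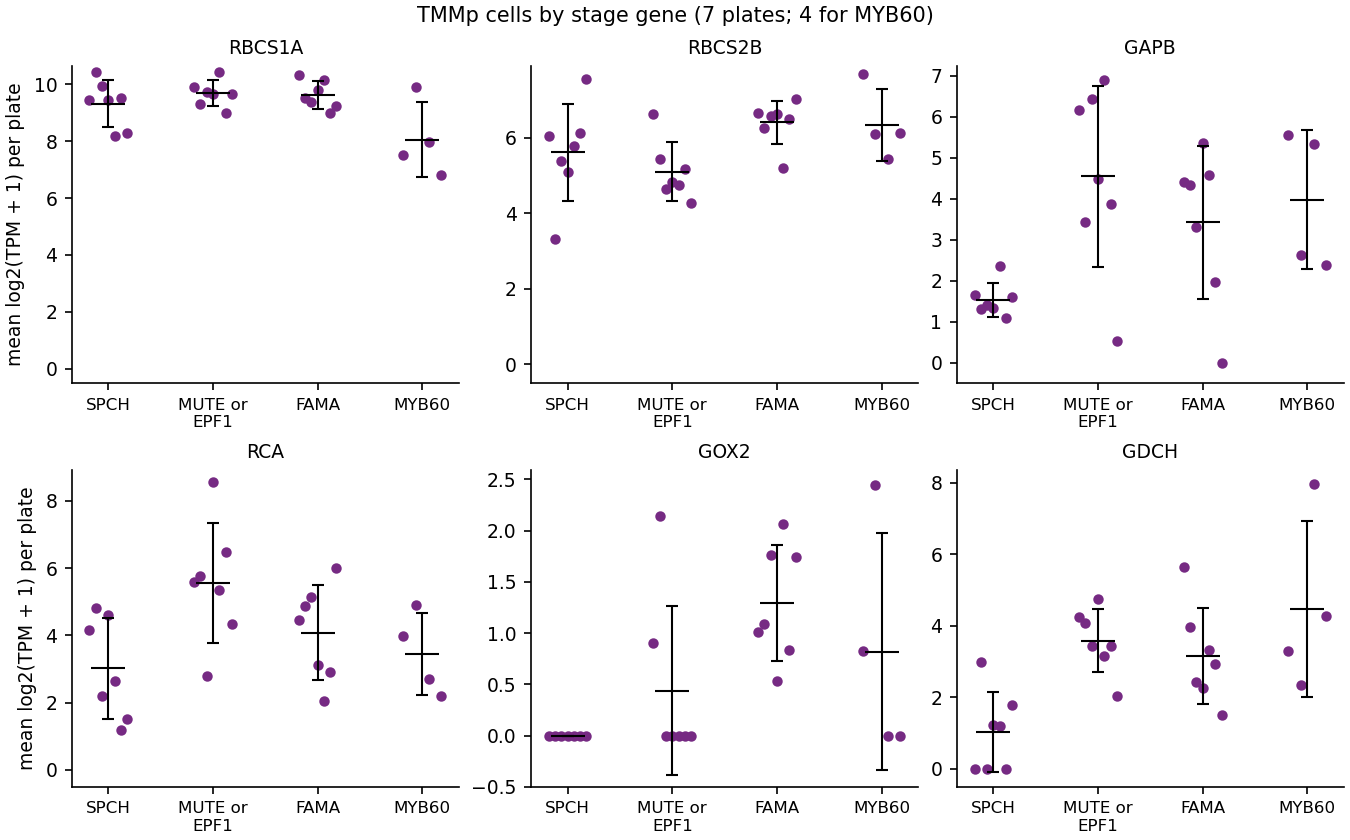
Mean log2(TPM + 1) over the cells of a plate for 6 genes in TMMp cells of the SPCH, MUTE or EPF1, FAMA and MYB60 classes. Points are plates with at least 3 such cells, and bars give the mean and SD. GOX2 is at 0 on all 7 plates in SPCH cells, and GAPB is at most 2.36 in SPCH cells and reaches 6.89 in MUTE or EPF1 cells.

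The photorespiration to Calvin cycle ratio was 0.551 in SPCH, 0.462 in MUTE or EPF1, 0.493 in FAMA and 0.559 in MYB60 cells. The Calvin sums behind them were 980, 1673, 1114 and 1653 TPM, and the photorespiration sums 540, 773, 549 and 924 TPM. In cells without a stage gene, high cells left out, the ratio was 0.958, from 431 TPM of photorespiration and 450 TPM of Calvin cycle.

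Further genes of these pathways, beyond the 34, were tested in the same fits. Over pools, 1.9% of all 18392 rows were called lower. Of 7 further Calvin cycle genes 1 was called lower, GAPA2 (-3.22 ± 0.32, limma adjusted p = 0.0102), a second gene of the dehydrogenase, and the median was -1.004. Of 19 further photorespiration genes 3 were called lower: the peroxisomal malate dehydrogenase PMDH2 (-3.94 ± 0.40), the chloroplast glycolate and glycerate transporter LrgB (-3.06 ± 0.41) and the plastid glutamine synthetase GS2 (-2.04 ± 0.31), with limma adjusted p from 0.0102 to 0.0241. Their median was -1.22. Of 7 cytosolic counterparts of plastid enzymes 1 was lower, the cytosolic fructose bisphosphatase AtcFBP of sucrose synthesis (-2.30 ± 0.38, limma adjusted p = 0.0277), and the median was 0.24. In low cells, with plates as units, 8.26% of 19872 rows were called in either direction. Of the 7 further Calvin cycle genes CP12-3 (1.77 ± 0.37) was higher in TMMp. Of the 19 further photorespiration genes AT1G32470 (2.24 ± 0.53) was higher, and CAT3 (-2.63 ± 0.78), PMDH1 (-1.46 ± 0.44) and PMDH2 (-2.33 ± 0.65) were lower. A last list held 8 genes of phosphoenolpyruvate carboxylase, malic enzyme and carbonic anhydrase. Of its 7 tested genes NADP-ME2 (-0.77 ± 0.20) was lower. The limma adjusted p of the genes called in this fit ran from 0.00757 to 0.0493.

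The cytosolic counterparts are enzymes of glycolysis and sucrose synthesis. In FAMA against SPCH cells 5 of the 7 rose, where 1009 of 15824 rows (6.38%) were called higher: the aldolase FBA6 (4.86 ± 0.77), the dehydrogenases GAPC1 (2.78 ± 0.49) and GAPC2 (2.26 ± 0.63), the kinase PGK (2.72 ± 0.72) and the triose phosphate isomerase CTIMC (2.34 ± 0.60), with limma adjusted p from 4.3e-06 to 0.0126. The calls of GAPC2 and PGK were lost with the number of genes detected as a covariate and without the plates of either pool, that of CTIMC without the plates of either pool and that of GAPC1 without those of pool 2. FBA6 kept its call in each of these fits. AtcFBP (0.94 ± 0.57) and FBA8 (0.56 ± 0.68) did not pass, with limma adjusted p of 0.344 and 0.692. The plastid enzymes of the same steps, PGK1, GAPA, GAPB, FBA1 and FBA2, had no call in that contrast, and the difference between cytosolic and plastid enzymes was not tested. PPC1 (3.55 ± 0.70), a phosphoenolpyruvate carboxylase, CAT1 (3.80 ± 0.71) and the carbonic anhydrase CA4 (2.51 ± 0.69) rose in the same contrast, with limma adjusted p from 0.000117 to 0.0124. PPC1 and CA4 were 2 of 6 tested genes of the last list, and CAT1 was 1 of 18 tested further photorespiration genes, against the 6.38% of all rows. CA4 (3.15 ± 0.69) and CP12-3 (3.91 ± 0.84) also rose in MUTE or EPF1 cells, with limma adjusted p of 0.00810 and 0.00542. They were 1 of 6 and 1 of 7 tested genes of their lists, where 0.739% of all rows were called in either direction. Without the plates of pool 2 the calls of CAT1, PPC1, CP12-3 and CA4 were lost, and those of CA4 also without the plates of pool 1.

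Sorter signals were recorded for each cell. Within plates, the Spearman rho between the activase and Calvin cycle sum and side scatter ran from -0.22 to 0.17 in ATML1p and from -0.12 to 0.32 in TMMp. Against the YFP signal it ran from -0.49 to -0.08 in ATML1p and from -0.08 to 0.31 in TMMp. Against the light-harvesting sum it ran from 0.64 to 0.93 in ATML1p and from 0.58 to 0.71 in TMMp, and in low cells alone from 0.59 to 0.79 and from 0.58 to 0.71. The photorespiration sum followed the light-harvesting sum at 0.51 to 0.67 in ATML1p low cells and at 0.19 to 0.47 in TMMp low cells.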

How the data were processed

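The authors deposited expression as TPM, with cells in columns per the file headers, and cell totals ran from 999558.6 to 1000086.3. The authors deposited sorter signals of 7 channels as log2 values, per the file headers. Which program quantified the reads is not given in the sources used here. Cell Ranger and TAIR 10 appear in the submitters' processing notes with no link to samples. The 4 samples made with the 10X method were not analysed here. All 621 cells were kept, with no doublet caller, and none had identical values.

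Members and lists were chosen with earlier results of these data known. All 34 members were named and, of the other lists, genes past the threshold, up to 6 per list. The TAIR10.1 annotation held all 34. A row with the summed RBCS copies was added.

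Lines were compared on log2(mean TPM + 1) per pool, for rows reaching a mean of 1 TPM in 2 or more pools, using limma 3.58.1 under R 4.3.3 (eBayes with trend, Benjamini-Hochberg, threshold 0.05). Stages were compared on plate means of log2(TPM + 1) over 3 or more cells, plate as a block, for genes whose mean reached 1 TPM in 20% of units. Fold changes on this scale understate low genes. Intervals cover counting of cells only. Fits were tested on simulated data. Other values came from Python 3.11.15 with scipy 1.17.1. Alternatives changed the unit, pseudocount, filter, normalization, cells, plates and pools.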

Additional observations from a re-analysis of the deposited data

Results flagged for a closer look

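In groups of 4 to 10 plates, 4 of 80 sets of plate values held a plate far from the rest by Dixon's test at the 95% level, and chance flags about 1 in 20 such sets. HCEF1 was at 0 on plate TMM3, and the next lowest of the 7 TMMp plates was at 6.20 TPM. EMB3119 was at 0 on the same plate, and the next lowest was at 5.29 TPM. PGLP1 was at 0.258 TPM on plate TMM5, and the next highest plate was at 0.0722 TPM. In ATML1p high cells the activase and Calvin cycle sum was 6282 TPM on plate ML2 (4 high cells), against 16403 TPM on the next lowest of the 5 plates. The median number of genes detected on plate ML2 was 1311, and in its high cells 2146. Those high cells had a median light-harvesting sum of 16077 TPM, against 44180 to 68174 TPM in high cells of the other ATML1p plates.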

How the results depend on the processing

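The count of genes lower in TMMp over pools was 22 and stayed within 1.5 times of that (16 to 29) with plates as units, the mean of log2 values, a pseudocount of 10, a filter at 10 TPM, quantile normalization, the replicate block and without plate ML2. It was 14 with a pseudocount of 0.1, 0 with no filter on low values (limma, 29 at an unadjusted p under 0.05), 0 without cells at 10000 or 5000 TPM or more and 1 without cells at 20000 TPM or more. Leaving out 1 pool gave 24 to 30. The prior degrees of freedom of limma were 5.43 in the reported fit, 16.9 and 14.4 without ATML1p pool 1 and 2 and infinite without either TMMp pool, so these counts say nothing about stability. Over all rows 436 were called, 539 to 4703 without 1 pool (1776 without ATML1p pool 1, 4703 without ATML1p pool 2), 2695 with plates, 1002 with the mean of log2 values, 159 with a pseudocount of 0.1, 0 without a filter (4016 at an unadjusted p under 0.05), 846 with quantile normalization, and 28, 2 and 47 without cells at 10000, 5000 and 20000 TPM or more.

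Pool numbers are only names. With the pool number as replicate block 28 members and 1698 rows were called, and pool 1 minus pool 2 correlated at 0.05 between the lines over 18391 genes, so the pools were not paired.

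Of 22 called genes and the RBCS sum, these turned above 0 (log2). Without cells at 10000 TPM or more, RBCS2B was 6.07, RCA 0.10, GAPA 0.82, GAPB 0.19, FBA2 0.25, SBPASE 0.78, RPE 0.01, PRK 0.20, AGT1 1.15, AT1G11860 0.29 and the RBCS sum 0.19. With 5000 TPM, RBCS1A was 0.41, RBCS2B 6.12, RBCS3B 0.14, RCA 0.75, GAPA 1.04, GAPB 0.93, FBA2 0.96, HCEF1 2.25, SBPASE 0.51, RPE 0.45, PRK 2.35, AGT1 1.88, AT1G11860 0.10 and the RBCS sum 0.79. With 20000 TPM, RBCS2B was 3.17, GAPA 0.15 and AGT1 0.40. With the mean of log2 values, RBCS2B was 3.75 and the RBCS sum 0.29. The cause was not tested beyond these values.

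In low cells by plate, the count called lower was 1, and 2 with the mean of log2 values and 0 at 5000 TPM. The count called higher was 1, 3 at 5000 TPM (with AGT1 and GAPA) and 2 without plate ML2 (with GAPA), where GOX1 replaced CA2 as lower. The RBCS sum difference of 0.24 became 0.77 at 5000 TPM, -0.33 at 20000 TPM, 2.72 with the mean of log2 values and -0.11 without RBCS2B.

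For MUTE or EPF1 the GAPB call (1) went to 0 with log2 of the mean TPM, no filter, without the plates of pool 1 or pool 2, with genes detected as a covariate and with no plate block, and calls over all rows went from 117 to 58, 52, 59 and 2 in the first 4 of these. For FAMA the count of 1 was 2 with log2 of the mean TPM (with FBA1), 3 with a pseudocount of 0.1 (with GGT1 and GDCH) and 0 without pool 2, and calls over all rows went from 1419 to 570 and 204 without pool 1 and pool 2. For MYB60 the count was 0, and 1 (SHM1) with the covariate, and calls over all rows went from 48 to 143 with log2 of the mean TPM, 9 with no filter and 3 without pool 1. TPM keep no read depth, so a gene at 0 in a cell could not be told from one that was missed.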
